A study of Mus musculus with 23 samples.

Results

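The genes described here are 6 of the ubiquitin ligase system and 2 diacylglycerol kinases that are linked to T cell anergy. They were given by name and taken as rows of the deposited count table by gene symbol, as Cbl, Cblb, Rnf128, Itch, Nedd4, Ndfip1, Dgka and Dgkz, which are 8 of its 21900 protein-coding genes. They were measured by RNA-seq in ovalbumin-specific T cells, OT-I cells (CD8) and OT-II cells (CD4), that had been transferred into wild-type C57BL/6 mice. On day 1 after transfer the mice received 1 ug of A8B1-OVA, a higher dose of free ovalbumin (OVA-high), free ovalbumin in an equal molar amount (OVA-molar), or saline. The cells were sorted on day 5 from pooled spleens and lymph nodes. All groups share the transgenic T cell receptors, the transfer and the host strain, each library pools RNA of 3 mice, and neither the age of the mice nor the nature of A8B1 is stated in the labels. Each of the 8 groups has n = 3 libraries, except OT-II OVA-high with n = 2 (replicates 2 and 3). Nothing in the labels says that libraries are separate beyond these pools, so p-values measure only the spread between pools.

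When a T cell receptor is engaged, phospholipase C produces diacylglycerol (DAG), which recruits RasGRP and protein kinase C and so starts the Ras and NF-kB branches of the signal. DAG kinases phosphorylate DAG to phosphatidic acid and end that signal. E3 ubiquitin ligases of the Cbl, Nedd4 and GRAIL types tag receptor and signalling proteins for internalisation or degradation. Some, but not all, members of both groups of enzymes have been described as brakes that are raised in anergic T cells. Egr2, Egr3 and NFAT are among the factors tied to the transcription of such brakes.

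The libraries held 26.6 M to 73.5 M counts, and 3 counts of a total, the level that a count of 0 allows, came to 0.0408 to 0.113 CPM (a gene's counts as a rate of all counts in its library), which covers counting error only. Cd8a lay between 783 and 1397 CPM in OT-I and between 1.12 and 7.41 CPM in OT-II libraries, and Cd4 between 539 and 699 CPM in OT-II libraries. Cd4 was 163 CPM in OT-I OVA-high replicate 1 and at most 16.3 CPM in the other OT-I libraries. The 15 myeloid marker genes found in the table summed to 977 CPM in OT-I OVA-molar replicate 2, 438 CPM in OT-I saline replicate 1 and 782 CPM in OT-II saline replicate 1, and B cell markers to 234.5 CPM in OT-II OVA-molar replicate 3. These 5 libraries are left out together where a result is given without them. On the first principal component of each cell type, replicate 3 of A8B1-OVA lay nearer to the other treatments, at -35.6 against -61 and -68.1 for the other A8B1-OVA replicates in OT-I, and at -38.5 against -60.4 and -62.3 in OT-II. In bulk RNA, fewer cells expressing a gene and less RNA per cell cannot be told apart.

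Promoter windows are shown for Dgkz, Cblb and Nedd4, since these were the members called in OT-I between A8B1-OVA and saline. They are RefSeq windows on GRCm38.p6, from 250 bases before to 50 after an annotated start, read 5′ to 3′ on the gene's strand, with matches to any of 4 short motifs in capitals.
Dgkz, chr2:91963514-91963813, minus strand: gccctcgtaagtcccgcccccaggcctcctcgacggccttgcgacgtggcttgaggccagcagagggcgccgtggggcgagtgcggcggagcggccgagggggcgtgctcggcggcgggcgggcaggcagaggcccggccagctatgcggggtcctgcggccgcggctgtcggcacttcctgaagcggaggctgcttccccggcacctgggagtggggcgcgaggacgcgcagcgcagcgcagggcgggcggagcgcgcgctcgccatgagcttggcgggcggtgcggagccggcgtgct
Dgkz, chr2:91950299-91950598, minus strand: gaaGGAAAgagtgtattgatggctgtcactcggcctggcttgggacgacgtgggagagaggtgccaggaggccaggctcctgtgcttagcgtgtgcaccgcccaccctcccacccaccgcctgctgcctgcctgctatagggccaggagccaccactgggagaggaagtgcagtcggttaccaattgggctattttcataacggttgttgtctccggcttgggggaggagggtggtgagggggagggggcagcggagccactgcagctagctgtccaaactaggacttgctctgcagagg
Cblb, chr16:52031299-52031598, plus strand: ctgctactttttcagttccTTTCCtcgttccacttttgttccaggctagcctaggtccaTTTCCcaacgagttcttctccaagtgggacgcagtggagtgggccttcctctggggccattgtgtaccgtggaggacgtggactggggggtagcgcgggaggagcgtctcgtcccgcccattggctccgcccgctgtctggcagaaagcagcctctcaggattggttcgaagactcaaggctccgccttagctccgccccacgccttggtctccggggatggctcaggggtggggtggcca
Nedd4, chr9:72662081-72662380, plus strand: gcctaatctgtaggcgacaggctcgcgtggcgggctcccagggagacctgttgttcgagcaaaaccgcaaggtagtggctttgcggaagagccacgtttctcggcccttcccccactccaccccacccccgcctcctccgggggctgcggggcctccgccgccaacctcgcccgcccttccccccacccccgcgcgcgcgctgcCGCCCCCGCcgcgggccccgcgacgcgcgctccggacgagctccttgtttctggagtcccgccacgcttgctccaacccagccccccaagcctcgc
Nedd4, chr9:72693048-72693347, plus strand: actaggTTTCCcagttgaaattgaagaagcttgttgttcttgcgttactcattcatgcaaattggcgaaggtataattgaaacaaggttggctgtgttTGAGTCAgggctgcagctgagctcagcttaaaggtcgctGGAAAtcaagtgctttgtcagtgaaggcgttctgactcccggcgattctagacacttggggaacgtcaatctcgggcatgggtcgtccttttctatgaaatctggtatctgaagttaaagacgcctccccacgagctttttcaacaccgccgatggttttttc
The motifs, searched on both strands, were GCGNGGGCG for Egr factors, GGAAA for NFAT, GTAAACA for FoxO and TGANTCA for AP-1. They occur in 5.55%, 61.3%, 3.65% and 7.81% of all 32851 windows of the same length. The first Dgkz window held none of these letters and the second held 1 NFAT match. The Cblb window held 2 NFAT matches, the first Nedd4 window 1 Egr match, and the second Nedd4 window 2 NFAT matches and 1 AP-1 match. A match describes the letters in these windows and is not a binding site.

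The loci are given on GRCm38 with the GENCODE M21 annotation. Dgkz lies at chr2:91932824-91975864 on the minus strand and Dgka at chr10:128720134-128744855 on the minus strand. Of the ligases, Cblb lies at chr16:52031225-52208048 and Nedd4 at chr9:72662346-72749852, both on the plus strand, and Cbl at chr9:44142976-44234049 on the minus strand. Itch lies at chr2:155133509-155226855 and Rnf128 at chrX:139563316-139673145, both on the plus strand. The adaptor gene Ndfip1 lies at chr18:38410396-38465303 on the plus strand. Between 0% and 5.66% of the 31-base words of a member's transcripts also occur in another gene. Dgka overlaps Pmel, and Dgkz overlaps Gm9821, both on the opposite strand. Whether counting used the strand is not given in the sources used here. Pmel itself had 91 to 475 counts in a library where Dgka had 26739 to 94092.

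Per exon length, the members spanned a wide range of levels. After saline, Dgka averaged 375 CPM per kb of exon in OT-I and 477 in OT-II, Ndfip1 229.8 and 218, and Dgkz 79.1 and 102 CPM per kb. Itch averaged 20.8 CPM per kb in OT-I and 21.8 in OT-II, Cblb 18.24 and 18.15, and Cbl 8.15 and 8.73. Nedd4 averaged 6.59 CPM per kb in OT-I and 0.650 in OT-II, and Rnf128 0.232 and 0.637 CPM per kb. Both DAG kinases and the adaptor Ndfip1 ranked above all the ligases in both cell types after saline, and Rnf128 ranked last there. All levels from here on are CPM per gene with library factors by the TMM method, so they compare groups and not genes.

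**Figure D1:**
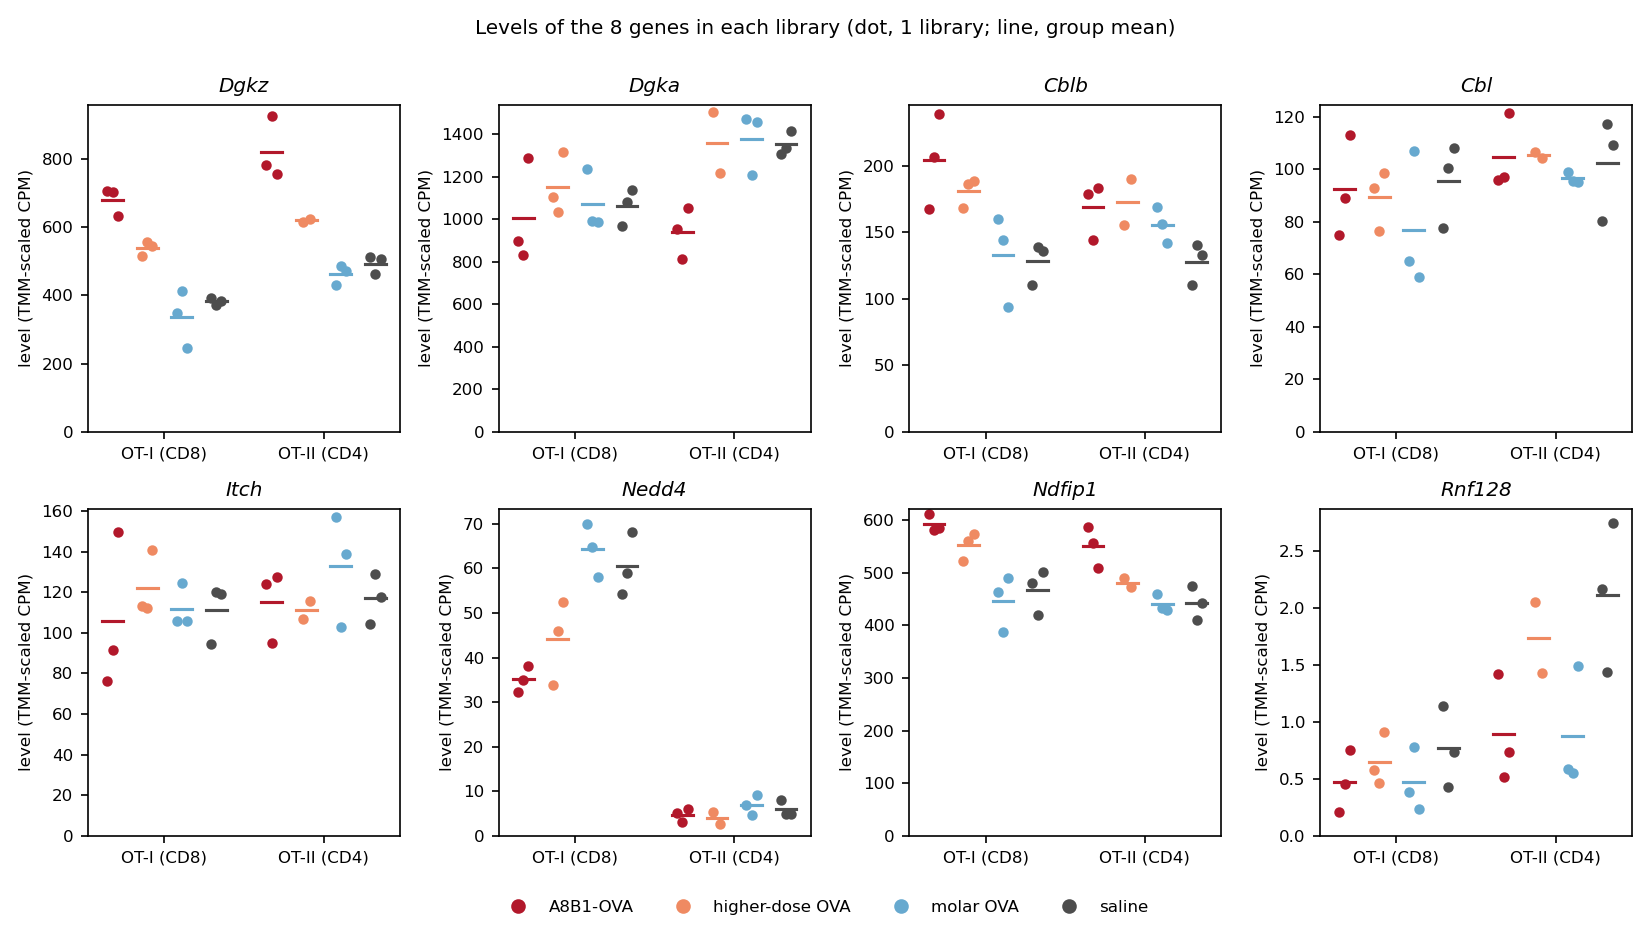
Levels of the 8 genes in every library, in TMM-scaled CPM on linear axes that start at 0, with 1 dot per library and a line at the group mean; OT-I groups are on the left of each panel and OT-II groups on the right, each in the order A8B1-OVA, OVA-high, OVA-molar, saline. The Dgkz panel has all A8B1-OVA libraries above the saline libraries of the same cell type, and Nedd4 is low in all OT-II libraries.

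Dgkz, which encodes the zeta isoform of DAG kinase, had the lowest adjusted p of the members for A8B1-OVA against saline in both cell types. In OT-I libraries it stood at 706, 702 and 632 CPM after A8B1-OVA, 515, 556 and 545 CPM after OVA-high, 349, 412 and 247 CPM after OVA-molar, and 393, 371 and 385 CPM after saline. In OT-II libraries it stood at 782, 925 and 756 CPM after A8B1-OVA, 614 and 625 CPM after OVA-high, 429, 486 and 470.5 CPM after OVA-molar, and 511, 461 and 507 CPM after saline. In both cell types every A8B1-OVA library lay above every OVA-high library, and every OVA-high library above every saline and OVA-molar library, whereas saline and OVA-molar overlapped. Against saline, Dgkz rose by 0.82 ± 0.16 (log2 fold change ± SE, 1.76-fold) in OT-I with an adjusted p of 0.00527 by edgeR's quasi-likelihood test with Benjamini-Hochberg adjustment over all genes. The same test gave 0.75 ± 0.09 (1.68-fold) in OT-II, adjusted p = 0.000773. Against OVA-molar it rose by 1.01 ± 0.16 in OT-I (adjusted p = 0.00176 by edgeR) and by 0.84 ± 0.09 in OT-II (adjusted p = 0.000498). Against OVA-high the difference did not pass the threshold, at 0.30 ± 0.16 in OT-I (95% interval -0.03 to 0.64, adjusted p = 0.319 by edgeR) and 0.42 ± 0.10 in OT-II (0.19 to 0.65, adjusted p = 0.0837). The response to A8B1-OVA against saline was 0.09 ± 0.18 larger in OT-I than in OT-II, with a 95% interval of -0.29 to 0.48 and an adjusted p of 0.937 by edgeR.

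These Dgkz calls against saline and OVA-molar held when any 1 library was left out. Without the 5 libraries with raised markers the differences from saline were 0.84 in OT-I (adjusted p = 0.0179) and 0.77 in OT-II (adjusted p = 0.00588) by edgeR. Myeloid marker sums were lower after A8B1-OVA, at 59.3 to 85.9 CPM in OT-I against 102 to 438 CPM after saline, and at 76.2 to 144.5 CPM in OT-II against 205 to 782 CPM. At most 1 of the 15 genes was at 0 in a library. In OT-II the 10 NK cell markers, which include genes that activated T cells also express, summed to 150.2 to 233 CPM after A8B1-OVA and 82.1 to 114 CPM after saline, again with at most 1 at 0. In OT-II the 12 erythroid and platelet markers summed to 188 to 393 CPM after A8B1-OVA and to 1122, 206 and 718 CPM in saline replicates 1, 2 and 3, with at most 4 at 0, and replicate 3 is not among the 5 libraries left out. The part of these remaining differences in any member's result was not tested.

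Dgka, the alpha isoform and the most abundant member per exon length, moved in OT-II cells in the opposite direction. Its OT-II libraries stood at 955, 814 and 1051 CPM after A8B1-OVA, 1504 and 1216 CPM after OVA-high, 1469, 1207 and 1459 CPM after OVA-molar, and 1304, 1334 and 1417 CPM after saline. All A8B1-OVA libraries lay below all others, and the other treatments overlapped. Dgka fell by 0.51 ± 0.12 against saline (0.702-fold, adjusted p = 0.0200 by edgeR) and by 0.54 ± 0.12 against OVA-molar (adjusted p = 0.0164), and its difference from OVA-high was -0.52 ± 0.13 (adjusted p = 0.0841). In OT-I it stood at 899.8, 832 and 1287 CPM after A8B1-OVA, 1103, 1035 and 1315 CPM after OVA-high, 1235, 991 and 985 CPM after OVA-molar, and 969.9, 1081 and 1138 CPM after saline. The OT-I groups overlapped, with replicate 3 of A8B1-OVA above every saline library and the other A8B1-OVA replicates below. The OT-I difference from saline was -0.09 ± 0.17 with all libraries and -0.31 without that replicate, and it passed the threshold in neither case (adjusted p = 0.784 and 0.168 by edgeR). The OT-I response exceeded the OT-II response by 0.45 ± 0.21 (95% interval -0.002 to 0.89, adjusted p = 0.546 by edgeR), so a difference between the cell types was not shown. The OT-II call against saline ended without A8B1-OVA replicate 1 or 2 or saline replicate 2 or 3 (-0.41 to -0.52, adjusted p = 0.0566 to 0.0820 by edgeR), and without the 5 libraries with raised markers (-0.54, adjusted p = 0.0504). The call against OVA-molar ended without A8B1-OVA replicate 1 or 2 or OVA-molar replicate 1 or 3 (adjusted p = 0.0517 to 0.0754 by edgeR), and without those 5 libraries (adjusted p = 0.0722).

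The ratio of Dgkz to Dgka, both in counts per kb of exon, was taken within each library. In OT-I it was 0.459, 0.494 and 0.288 after A8B1-OVA, 0.274, 0.314 and 0.243 after OVA-high, 0.166, 0.243 and 0.147 after OVA-molar, and 0.237, 0.201 and 0.198 after saline. In OT-II it was 0.479, 0.665 and 0.421 after A8B1-OVA, 0.239 and 0.301 after OVA-high, 0.171, 0.236 and 0.189 after OVA-molar, and 0.230, 0.203 and 0.209 after saline. A8B1-OVA libraries lay above saline and OVA-molar libraries in both cell types, and above OVA-high libraries in OT-II but not in OT-I. The geometric mean ratio was 1.90 times as high after A8B1-OVA as after saline in OT-I and 2.40 times as high in OT-II. An exact two-sided permutation test gave p = 0.1 for each, the smallest that 3 against 3 libraries allow, and 0.171 after adjustment over 12 comparisons. With so few libraries this test could not have come under 0.05, so the ratios are a description. Dgka was the more abundant of both transcripts per exon length in every library.

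**Figure D2:**
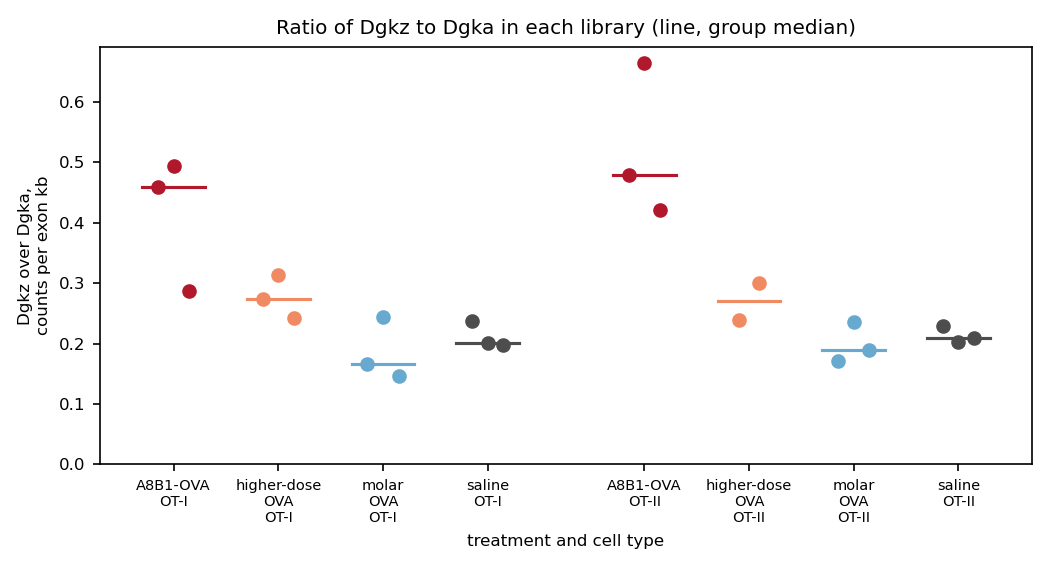
Ratio of Dgkz to Dgka counts per kb of exon in each library on a linear axis from 0, with 1 dot per library and a line at the group median. A8B1-OVA libraries reach from 0.288 to 0.494 in OT-I and from 0.421 to 0.665 in OT-II, against 0.198 to 0.237 and 0.203 to 0.230 after saline.

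Cblb, the ligase that restrains T cells that lack CD28 co-stimulation, was higher after A8B1-OVA in OT-I cells. It stood at 168, 207 and 239 CPM after A8B1-OVA, 169, 186 and 189 CPM after OVA-high, 160.5, 144 and 94.1 CPM after OVA-molar, and 111, 139 and 136 CPM after saline. A8B1-OVA and OVA-high overlapped, and both lay above OVA-molar and saline in TMM-scaled CPM. In CPM by plain library totals, without TMM factors, A8B1-OVA replicate 1 (150.4 CPM) lay below OVA-molar replicate 1 (154.9 CPM). Cblb rose against saline by 0.66 ± 0.19 (1.58-fold, adjusted p = 0.0398 by edgeR), while its difference from OVA-molar was 0.61 ± 0.19 (adjusted p = 0.0549) and from OVA-high 0.14 ± 0.19 (adjusted p = 0.738). The call against saline ended when A8B1-OVA replicate 2 or 3 or any saline replicate was left out (0.53 to 0.72, adjusted p = 0.0806 to 0.147 by edgeR), and without the 5 libraries with raised markers (0.56, adjusted p = 0.171). The OT-II libraries stood at 179, 145 and 183 CPM after A8B1-OVA, 156 and 189.8 CPM after OVA-high, 169, 156 and 142 CPM after OVA-molar, and 111, 141 and 133 CPM after saline. There, in TMM-scaled CPM, every library that had received any form of ovalbumin lay above every saline library. The gap was small, with OVA-molar replicate 3 at 141.9 CPM and saline replicate 2 at 140.7 CPM. By plain library totals the order changed. Saline replicate 2 (150.18 CPM) then lay above A8B1-OVA replicate 2 (150.09 CPM) and OVA-molar replicate 3 (149.1 CPM). How many of all genes separate in such a way is not given here. The OT-II difference of A8B1-OVA from saline, 0.41 ± 0.14, did not pass the threshold (adjusted p = 0.0914 by edgeR; 0.0282 by DESeq2). Its relative Cbl, which tags activated receptor complexes, passed the threshold in no comparison, at 59.1 to 113 CPM in OT-I and 80.4 to 122 CPM in OT-II.

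Nedd4, the founding member of the HECT ligase family that shares its name, had the largest difference between the cell types among the members. OT-I libraries stood at 32.2, 35.0 and 38.1 CPM after A8B1-OVA, 33.8, 46.0 and 52.4 CPM after OVA-high, 70.1, 64.8 and 58.1 CPM after OVA-molar, and 54.3, 58.9 and 68.3 CPM after saline. OVA-molar and saline overlapped, OVA-high lay below both, and all A8B1-OVA libraries lay below both as well while overlapping OVA-high through its replicate 1, the library with raised Cd4. Nedd4 fell against saline by 0.80 ± 0.16 (0.576-fold, adjusted p = 0.00664 by edgeR) and against OVA-molar by 0.88 ± 0.16 (0.543-fold, adjusted p = 0.00431). Both calls held without any 1 library and without the 5 libraries with raised markers (-0.86 and -0.87, adjusted p = 0.0102 and 0.00927 by edgeR). Against OVA-high the difference was -0.36 ± 0.16 with a p of 0.0421 and an adjusted p of 0.245 by edgeR.

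In OT-II libraries Nedd4 was scarce, at 5.06, 3.17 and 5.96 CPM after A8B1-OVA, 5.34 and 2.60 CPM after OVA-high, 6.98, 4.65 and 9.25 CPM after OVA-molar, and 8.13, 4.93 and 4.84 CPM after saline. The OT-II treatments overlapped, and the difference of A8B1-OVA from saline was -0.32 ± 0.36 (95% interval -1.10 to 0.47, adjusted p = 0.697 by edgeR). The OT-I response minus the OT-II response was -0.45 ± 0.39 (-1.26 to 0.36, adjusted p = 0.806), so the OT-I fall was not shown to differ from the OT-II value. Between the cell types, every OT-I library lay above every OT-II library for Nedd4. After saline, other members also did not overlap, with OT-I lower. These were Dgka (970 to 1138 CPM in OT-I against 1304 to 1417 in OT-II), Dgkz (371 to 393 against 461 to 511) and Rnf128 (0.433 to 1.14 against 1.44 to 2.74). Dgkz did not overlap after A8B1-OVA either (632 to 706 against 756 to 925 CPM). The share of all genes without such overlap is not given here. Nedd4 was 10.1-fold higher in OT-I than in OT-II after saline (log2 3.34 ± 0.30, adjusted p = 1.01e-07 by edgeR) and 7.41-fold higher after A8B1-OVA (2.89 ± 0.29, adjusted p = 7.92e-07). By edgeR it was the only member of the 8 called between the cell types, while DESeq2 also called Dgkz and Rnf128 after saline, and 15.5% of all genes tested were called after saline and 20.6% after A8B1-OVA. Scaling by plain library totals shifted the median gene between the cell types by -0.08 after saline and -0.19 after A8B1-OVA on the log2 scale, and under it Dgkz was also called, at -0.44 and -0.46.

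Itch, another HECT ligase of this family, did not pass the threshold in any comparison. It stood at 76.4, 91.5 and 149.6 CPM after A8B1-OVA and 94.5, 120.0 and 119 CPM after saline in OT-I, and between 94.8 and 157 CPM in all OT-II libraries. The highest and the lowest OT-I libraries were both A8B1-OVA libraries, and without replicate 3 the difference from OVA-high was -0.57 (adjusted p = 0.0388 by edgeR), against -0.23 ± 0.21 with it (adjusted p = 0.593). Ndfip1, the membrane adaptor that recruits and activates Itch and Nedd4, was highest after A8B1-OVA in both cell types. In OT-I it stood at 611, 582 and 585 CPM after A8B1-OVA, 522, 561 and 574 CPM after OVA-high, 463, 387 and 491 CPM after OVA-molar, and 481, 419 and 502 CPM after saline. The OT-II libraries stood at 587, 557 and 509 CPM after A8B1-OVA, 489.8 and 473 CPM after OVA-high, 460.3, 434 and 429 CPM after OVA-molar, and 475, 411 and 442 CPM after saline. In both cell types the A8B1-OVA libraries lay above all libraries of the other treatments in TMM-scaled CPM. The share of all genes that separate like this is not given here. In OT-I the lowest A8B1-OVA library, at 582 CPM, was close to the highest OVA-high library, at 574 CPM. By plain library totals these OT-I groups overlapped. A8B1-OVA replicate 2 (527.8 CPM) then lay below OVA-high replicates 2 and 3 (536.8 and 546.7 CPM). Against OVA-high, Ndfip1 was not called in either cell type. With single libraries left out, that difference was 0.03 to 0.12 in OT-I (adjusted p = 0.735 to 0.941 by edgeR) and 0.16 to 0.26 in OT-II. Ndfip1 rose by 0.33 ± 0.08 against saline (1.26-fold, adjusted p = 0.0326 by edgeR) and by 0.33 ± 0.08 against OVA-molar (adjusted p = 0.0349) in OT-II, and by 0.40 ± 0.12 against OVA-molar in OT-I (adjusted p = 0.0491). Its OT-I difference from saline was 0.33 ± 0.12 (adjusted p = 0.0934 by edgeR). Each of the 3 calls ended without the 5 libraries with raised markers (adjusted p = 0.0605, 0.112 and 0.191 by edgeR). Leaving out single libraries ended them too, namely A8B1-OVA replicate 1 or 2 for all 3, A8B1-OVA replicate 3 and OVA-molar replicate 1 or 2 in OT-I, saline replicate 2 or 3 against saline in OT-II, and any OVA-molar replicate against OVA-molar in OT-II. The adjusted p then lay between 0.0533 and 0.128.

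Rnf128, which encodes the transmembrane ligase GRAIL, was scarce, with 8 to 128 counts in a library. It stood at 0.211, 0.457 and 0.750 CPM after A8B1-OVA and 1.14, 0.433 and 0.736 CPM after saline in OT-I. In OT-II it stood at 1.42, 0.519 and 0.734 CPM after A8B1-OVA, 2.05 and 1.43 CPM after OVA-high, 0.586, 0.554 and 1.49 CPM after OVA-molar, and 2.16, 1.44 and 2.74 CPM after saline. All OT-II A8B1-OVA libraries lay below all OT-II saline libraries, whereas the OT-I groups overlapped. The OT-II difference from saline was -1.23 ± 0.52 (95% interval -2.35 to -0.10, adjusted p = 0.193 by edgeR), and the OT-I difference was -0.70 ± 0.60 (-1.999 to 0.61, adjusted p = 0.499).

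**Figure D3:**
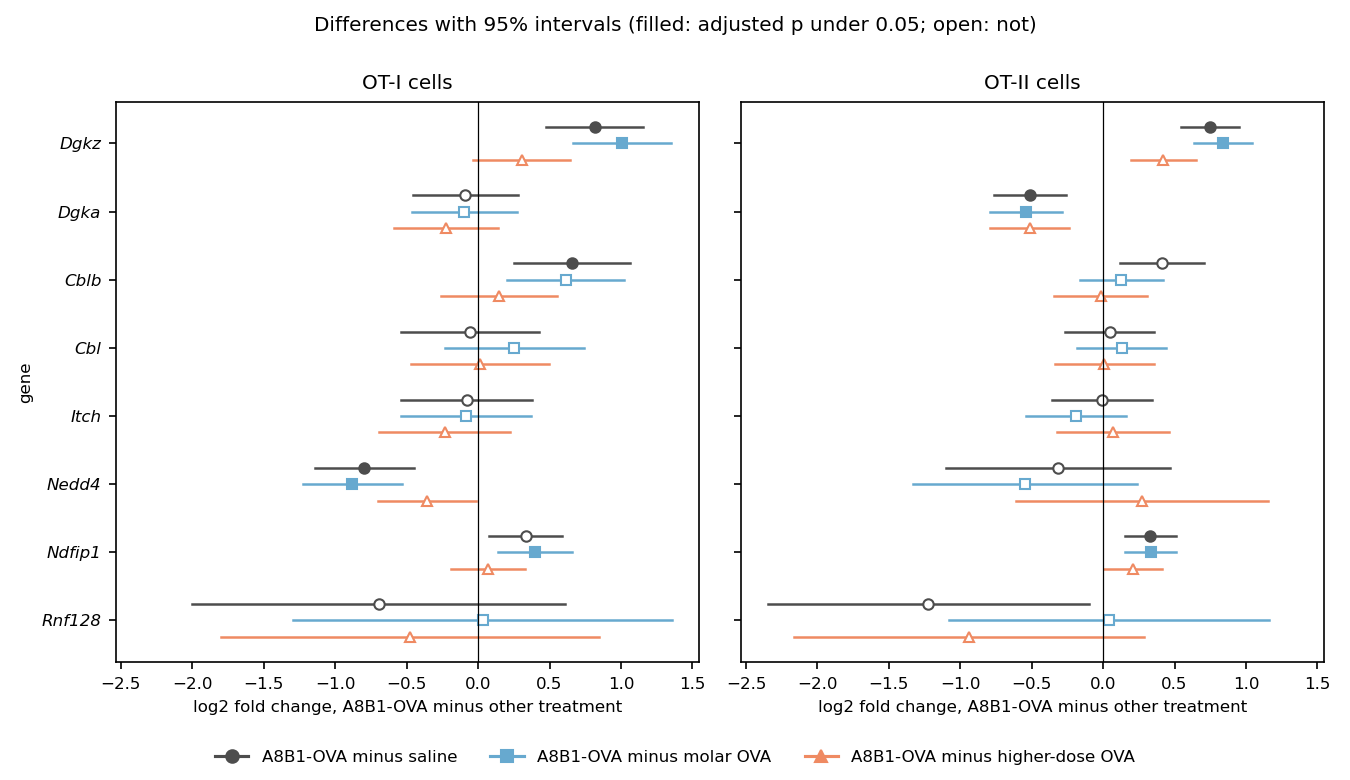
Log2 fold change of each member between A8B1-OVA and saline (circles), OVA-molar (squares) or OVA-high (triangles), with 95% intervals as horizontal lines, for OT-I on the left and OT-II on the right; filled marks passed an adjusted p of 0.05. Dgkz is filled to the right of 0 against saline and OVA-molar in both cell types, Nedd4 is filled to the left in OT-I and Dgka in OT-II, and no mark against OVA-high is filled.

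Counted over the 8 members, all of which passed the filter on low counts, A8B1-OVA against saline called 3 in OT-I (Dgkz and Cblb higher, Nedd4 lower), where 11.5% of all 14080 genes tested were called. The same comparison called 3 in OT-II (Dgkz and Ndfip1 higher, Dgka lower), where 7.28% of all 14757 genes were called. Against OVA-molar the counts were again 3 in OT-I (Dgkz and Ndfip1 higher, Nedd4 lower; 10.6% of all genes called) and 3 in OT-II (Dgkz and Ndfip1 higher, Dgka lower; 6.36%). The comparisons with saline and with OVA-molar share the A8B1-OVA libraries. Against OVA-high edgeR called 0 members in OT-I and 0 in OT-II, where 2.41% and 1.34% of all genes were called; 1 and 3 members had an unadjusted p under 0.05, and DESeq2 called 0 and 2. The median log2 fold change over the members was -0.07 against saline in OT-I and 0.02 in OT-II, beside -0.02 and -0.01 over all genes tested, so the members did not move in one direction.

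Among the libraries given free ovalbumin or saline, calls of members depended on the test. With OVA-high against saline, edgeR called 0 of 8 in OT-I (2.41% of all genes called; 4 members with an unadjusted p under 0.05; 0 by DESeq2; 2, Dgkz and Cblb, in a fit of only these groups) and 0 of 8 in OT-II (0.0271% called; 2 members; 0 by DESeq2). Dgkz had the lowest p in both, with a difference of 0.51 ± 0.16 in OT-I (adjusted p = 0.133 by edgeR) and 0.33 ± 0.10 in OT-II (adjusted p = 0.597). With OVA-molar against saline edgeR called 0% of the genes tested in either cell type, and 0 members in OT-I and 1 in OT-II, Rnf128, had an unadjusted p under 0.05 (0 by DESeq2). Between the ovalbumin doses, Dgkz was 0.71 ± 0.16 higher after OVA-high than after OVA-molar in OT-I (adjusted p = 0.0534 by edgeR, 0.00235 by DESeq2, and 0.0324 without OVA-molar replicate 2; 1.04% of all genes called) and 0.42 ± 0.10 higher in OT-II (adjusted p = 0.569; 0% called). No member's response to A8B1-OVA or to OVA-high was shown to differ between the cell types, with 0 of 8 called in each of 3 interaction tests by edgeR (0.433%, 0.00656% and 0.00656% of all 15235 genes called), 0 members at an unadjusted p under 0.05 and 0 by DESeq2.

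Over the 23 libraries, with each cell type centred on its own mean, the 3 genes most like each of the 5 members called for A8B1-OVA were looked up among 8497 genes by Pearson's r of log2 CPM. Dgkz ran closest to Nfatc1 (r = 0.973), Lrp10 (0.961) and Nlrx1 (0.955). Dgka ran closest to Ripor2 (r = 0.934), Scml4 (0.914) and Ifi208 (0.902), and Ndfip1 to B3gnt2 (0.938), Naa20 (0.930) and Icos (0.923). Cblb ran closest to Pecam1 (r = 0.873), Atad2 (0.872) and Atp2a2 (0.868), and Nedd4 to Prps1l3 (0.811), Colgalt1 (0.787) and Spop (0.765). The libraries share their treatment groups, and these values are a description.

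The transcription factors tied to anergy genes form the list with the largest share of calls among the 8 pathway lists for A8B1-OVA against saline. These lists were chosen with earlier results of these data known, so their shares and medians are a description. In that comparison 6 of 15 rose and 2 fell in each cell type, where 7.07% of all genes rose and 4.43% fell in OT-I and 4.4% rose and 2.88% fell in OT-II. Egr2, whose product has been described as a driver of anergy genes, averaged 35.0 CPM after A8B1-OVA and 11.2 CPM after saline in OT-I, and 56.6 and 13.6 CPM in OT-II. It rose by 1.63 ± 0.19 in OT-I (adjusted p = 0.000206 by edgeR) and 2.07 ± 0.27 in OT-II (adjusted p = 0.000993). Its co-repressor Nab2 rose by 0.84 ± 0.13 and 1.08 ± 0.10, the calcium-responsive factor Nfatc1 by 0.82 ± 0.16 and 0.88 ± 0.09, and the Ikaros-family gene Ikzf3 by 0.87 ± 0.15 and 0.96 ± 0.12. The median of the list was 0.54 in OT-I and 0.79 in OT-II, beside -0.02 and -0.01 over all genes. Against OVA-high, where 1.63% of all genes rose in OT-I and 0.82% in OT-II, 3 rose in OT-I and 5 in OT-II, with Egr2, Egr3 and Nab2 among both, and Tob1, an antiproliferative factor gene, fell in OT-I (-0.67 ± 0.16, adjusted p = 0.0497 by edgeR).

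Genes around DAG are given beside all genes, of which 11.5% were called for A8B1-OVA against saline in OT-I and 7.28% in OT-II. After A8B1-OVA against saline, edgeR called no other DAG kinase among 5 tested in OT-I (0 with an unadjusted p under 0.05; 0 by DESeq2) and 6 in OT-II (2 with an unadjusted p under 0.05; 0 by DESeq2). Of 30 genes of DAG, Ras and PKC signalling, 0 rose and 2 fell in OT-I, where 11.5% of all genes were called, among them Malt1, the paracaspase gene of the NF-kB branch, at 97.2 CPM after A8B1-OVA and 174 CPM after saline (-0.84 ± 0.18, adjusted p = 0.00933 by edgeR). In OT-II, where 7.28% of all genes were called, 2 rose and 1 fell. Rasgrp2, a Ras-family exchange factor, averaged 67.6 CPM after A8B1-OVA and 131.2 CPM after saline in OT-II (-0.94 ± 0.09, adjusted p = 0.000175 by edgeR), whereas Rasa1, a Ras-inactivating protein, rose by 0.60 ± 0.14 and the kinase gene Prkch by 0.43 ± 0.08. The list medians were 0.02 in OT-I and -0.05 in OT-II. Tested between the cell types, the response differed for 1 of the 30 genes, Rasgrp2 (OT-I minus OT-II response 1.09 ± 0.15, adjusted p = 0.00102 by edgeR; 0.433% of all genes called), which averaged 131.1 CPM after A8B1-OVA and 119.7 CPM after saline in OT-I.

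Of the ligases related to the members, those called against saline were lower, and most were not called. Of the 8 Nedd4-family genes edgeR called 0 in OT-I (4 with an unadjusted p under 0.05; 1 by DESeq2) and 0 in OT-II (0 with an unadjusted p under 0.05; 0 by DESeq2), with median log2 differences of -0.47 in OT-I and -0.32 in OT-II. Of 7 transmembrane RING ligases tested, 3 fell in OT-I and 1 in OT-II, where 4.43% and 2.88% of all genes fell. Rnf130, a relative of Rnf128, averaged 26.2 CPM after A8B1-OVA and 51.6 CPM after saline in OT-I (-0.99 ± 0.12, adjusted p = 0.000313 by edgeR) and 48.7 and 45.8 CPM in OT-II (0.10 ± 0.11, adjusted p = 0.677), with a difference between these responses of -1.06 ± 0.16 (adjusted p = 0.00204). In OT-I, Znrf3, which removes Wnt receptors, averaged 30.7 CPM after A8B1-OVA and 60.5 CPM after saline (-0.98 ± 0.17, adjusted p = 0.00260). Rnf167 fell in both, by 0.50 ± 0.13 in OT-I and 0.38 ± 0.10 in OT-II. Of 21 other ligases and deubiquitinases, 0 rose and 3 fell in each cell type, beside 11.5% of all genes called in OT-I and 7.28% in OT-II. The cytokine-signal suppressors Socs3 and Socs1 fell in both, Socs3 by 1.23 ± 0.24 in OT-I and 1.52 ± 0.25 in OT-II, with Peli1 also lower in OT-I (-0.75 ± 0.16) and Dtx1, an anergy-associated ligase gene, in OT-II (-0.46 ± 0.10, adjusted p = 0.0162 by edgeR).

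Cbl-binding proteins included the largest rise. Spry1, a Sprouty feedback inhibitor, averaged 21.9 CPM after A8B1-OVA and 2.08 CPM after saline in OT-I (3.38 ± 0.50, adjusted p = 0.000931 by edgeR), and 30.5 and 5.63 CPM in OT-II (2.45 ± 0.39, adjusted p = 0.00281). The adaptor gene Sla2 fell in both, by 0.50 ± 0.14 and 0.44 ± 0.12. Of 14 tested genes 1 rose and 1 fell in OT-I, where 7.07% of all genes rose and 4.43% fell. In OT-II 2 rose and 1 fell, where 4.4% of all genes rose and 2.88% fell. Of 21 genes for proteins described as targets of the ligases, 2 rose and 4 fell in OT-I, where 11.5% of all genes were called, and 0 rose and 2 fell in OT-II, where 7.28% were. Junb, whose product has been described as an Itch target, averaged 528 CPM after A8B1-OVA and 1563 CPM after saline in OT-I (-1.58 ± 0.32, adjusted p = 0.00675 by edgeR), and 1525 and 3876 CPM in OT-II (-1.33 ± 0.33, adjusted p = 0.0283). Cd83, a surface protein of activated lymphocytes, averaged 101 and 22.8 CPM in OT-I (2.14 ± 0.37, adjusted p = 0.00260), and Cd40lg, the helper ligand for CD40, 107 and 191 CPM in OT-II (-0.82 ± 0.16, adjusted p = 0.00948). Medians over these lists lay between -0.10 and 0.05, close to those over all genes.

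**Figure D4:**
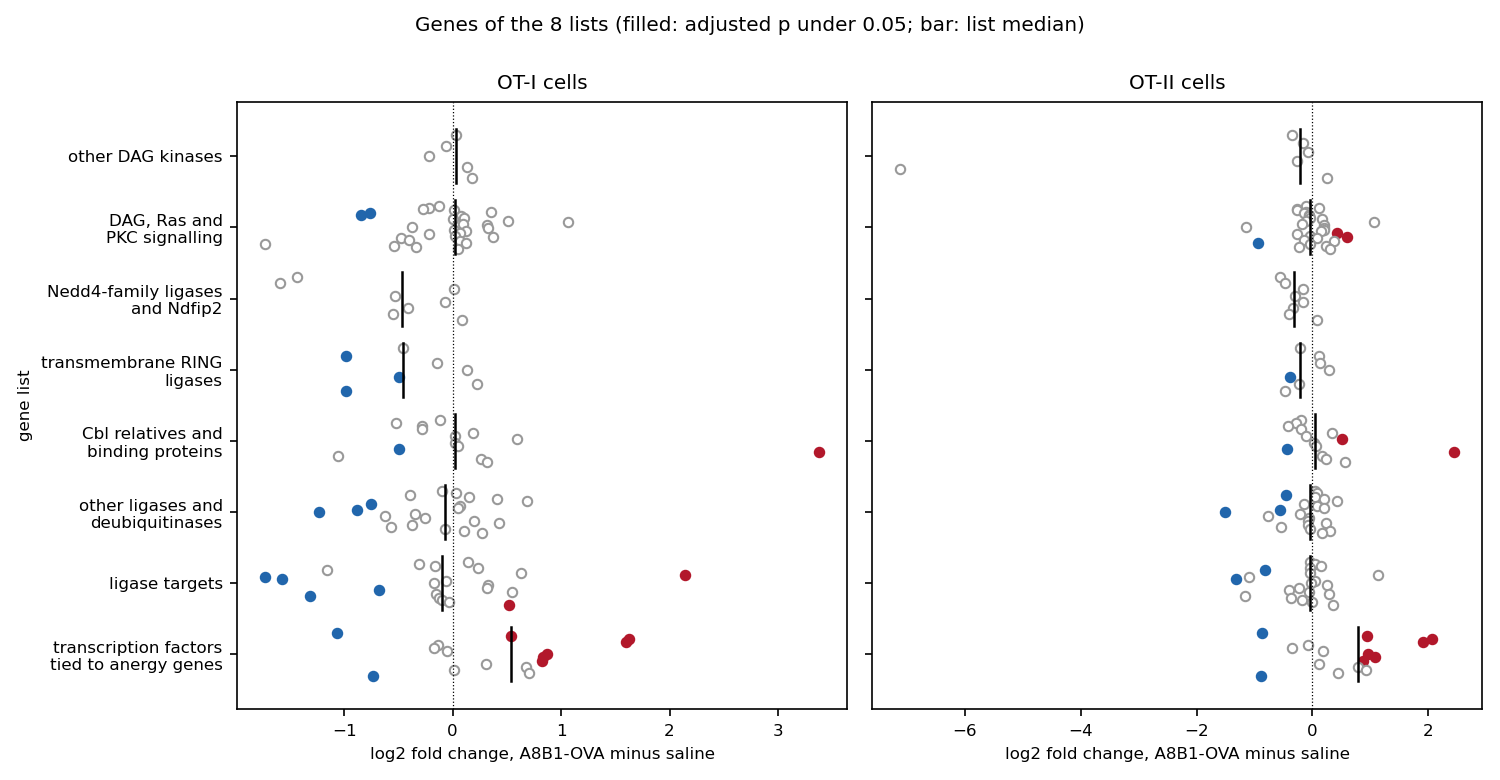
Log2 fold change between A8B1-OVA and saline of every tested gene in 8 lists around the members, for OT-I on the left and OT-II on the right on separate scales; red and blue fills mark genes called higher and lower, open dots were not called and black bars are list medians. The transcription factor list has its median at 0.54 and 0.79, while the other medians lie between -0.47 and 0.05; the open dot far left in OT-II is Dgki, which had no count after A8B1-OVA, so its fitted value is no estimate of size.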

How the data were processed

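The authors deposited 1 table of estimated counts per gene and library. The tools named in the submitters' processing notes are bcl2fastq and kallisto 0.46.1, a pseudoaligner, with the build GRCm38, and per the labels, cDNA was made from polyadenylated RNA with the SmartSeq protocol. All values are whole numbers; how they were rounded, how transcripts were summed to genes, which annotation release and strand setting were used is not given in the sources used here. Groups followed cell type and treatment in the labels; the field for cell type names the OT-II libraries inconsistently, so their titles were used.

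Each cell type was fitted over all its genes and libraries (12 OT-I, 11 OT-II) with edgeR 4.0.16 in R 4.3.3, with TMM factors, filterByExpr (minimum count 10, minimum total 15), 1 coefficient per group, no block and the quasi-likelihood test. Cell types were compared in 1 fit of 23 libraries. Standard errors are the log2 fold change over the root of F. Calls required an adjusted p under 0.05 (Benjamini-Hochberg, over all genes tested). The 8 genes, the 8 pathway lists (128 genes) and the marker lists were chosen with earlier results of these data known. Named list genes were up to 4 called genes per list with the lowest adjusted p for each comparison of A8B1-OVA, and the 3 genes most like each called member by Pearson's r among genes with a mean of at least 10 CPM. The values of 1 gene that this rule names are not reported here. The test was tried on simulated data first. Same-numbered libraries did not qualify as pairs. Library totals were 26.6 M to 73.5 M counts. Alternatives were DESeq2 1.42.0, RLE factors, plain totals (added after the data were seen), no low-count filter, fits of only both groups compared, a replicate block, and leaving out single libraries or the 5 with raised markers.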

Additional observations from a re-analysis of the deposited data

Results flagged for a closer look

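The response to A8B1-OVA against saline differed between the cell types, in a test of that difference, for 2 genes of the pathway lists. For Rasgrp2 the OT-I response exceeded the OT-II response by 1.09 ± 0.15 on the log2 scale (adjusted p = 0.00102 by edgeR), with 131.1 CPM after A8B1-OVA and 119.7 CPM after saline in OT-I, and 67.6 and 131.2 CPM in OT-II. For Rnf130 the OT-I minus OT-II response was -1.06 ± 0.16 (adjusted p = 0.00204 by edgeR), with 26.2 CPM after A8B1-OVA and 51.6 CPM after saline in OT-I, and 48.7 and 45.8 CPM in OT-II.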

How the results depend on the processing

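No value of a member that was called changed sign under any alternative. RLE size factors left all 136 values on the same side of the threshold, DESeq2 128 of 136, plain library totals 131, no low-count filter 133, and leaving out the 5 libraries with raised markers 130. Fits of only both groups compared left 91 of 96, and leaving out single libraries 889 of 920. Counts of members called that moved by over 1.5 times were as follows. DESeq2 called 1 member for OVA-high against OVA-molar in OT-I, 3 between OT-I and OT-II after saline (Nedd4, Dgkz and Rnf128) and 2 for A8B1-OVA against OVA-high in OT-II (Dgkz and Dgka). Plain totals called 2 between the cell types after A8B1-OVA, 2 after saline, and 1 for A8B1-OVA against OVA-high in OT-II. A fit of both groups alone called 2 for OVA-high against saline in OT-I (Dgkz and Cblb). Without the 5 libraries, 1 member (Dgkz) was called in OT-II for A8B1-OVA against saline and 1 against OVA-molar. Leaving out single libraries gave 0 to 1 for A8B1-OVA against OVA-high in OT-I (1, Itch, without A8B1-OVA replicate 3), 0 to 1 for OVA-high against OVA-molar in OT-I, and in OT-II 1 to 3 for A8B1-OVA against saline and 1 to 3 against OVA-molar. Single calls also changed where the count moved less. DESeq2 added Cblb against saline in OT-II and against OVA-molar in OT-I, and Ndfip1 against saline in OT-I. Plain totals ended the OT-I calls of Cblb against saline and Ndfip1 against OVA-molar. No low-count filter and fits of both groups alone each ended all 3 Ndfip1 calls. Leaving out the 5 libraries also ended those of Cblb against saline and Ndfip1 against OVA-molar in OT-I. Cblb against OVA-molar in OT-I was called without A8B1-OVA replicate 1 or OVA-molar replicate 1 (adjusted p = 0.0450 and 0.0408 by edgeR). The cause of these moves was not tested. In OT-II OVA-high, leaving out a library leaves 1, which was taken to vary like the other groups.

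The replicate block left 134 of 136 values on the same side. It ended the OT-I calls of Cblb against saline (0.66, adjusted p = 0.0614 by edgeR) and of Ndfip1 against OVA-molar (0.41, adjusted p = 0.0532). Same-numbered libraries had correlated deviations over 0.1 in 10 of 33 pairs within cell types (median 0.05, against -0.02 for different numbers) and in 6 of 11 pairs across them (median 0.26, against -0.09). Of 23 libraries, 7 and 11 correlated best with one of their own number. The rule set for pairing was that every pair exceed 0.1, so the numbers were not taken as pairing. With the block, 101 genes instead of 66 were called for the OT-I minus OT-II response to A8B1-OVA against saline. It added no call of a member. Rnf128 had 8 to 128 counts per library, and Nedd4 in OT-II had 144 to 492. How far depth limited their results was not tested.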

Other observations

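Replicate 3 of A8B1-OVA, which lay nearer to the other treatments on the first principal component, was also the highest or lowest of its group for several members. In OT-I it had the highest level of its group for Dgka (1287 CPM against 899.8 and 832), Itch (149.6 against 76.4 and 91.5), Cbl (113 against 75.1 and 89.0) and Cblb (239 against 168 and 207), and the lowest for Dgkz (632 against 706 and 702). In OT-II the same replicate number had the highest Dgka (1051 CPM against 955 and 814), Itch (127 against 124 and 94.8), Cbl (122 against 95.9 and 97.2) and Cblb (183 against 179 and 145), and the lowest Dgkz (756 against 782 and 925). For Itch, Cblb and Dgkz in OT-II, however, it lay close to replicate 1, and replicate 2 was the farther library. Replicate 3 was the middle library for Ndfip1 in OT-I (585 CPM against 611 and 582) and for Rnf128 in OT-II (0.734 against 1.42 and 0.519). Whether libraries of the same number came from the same mice is not given in the sources used here.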
